A study of Mus musculus with 12 samples.

Results

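A permanently growing mouse macrophage line, immortalized mouse macrophages (IMM), was compared at 120 min and at 30 min after the addition of lipopolysaccharide (LPS), the component of the Gram-negative outer membrane that macrophages sense through TLR4. The samples were chosen by the time given in their titles, 3 at 120 min and 3 at 30 min, 6 of the 12 in the series, and the measured features were the 566 mouse miRNA probes among the 626 on a NanoString nCounter panel. All 6 libraries came from unmodified IMM cells in serum-supplemented DMEM, and all had received LPS at 100 ng/mL, so that the comparison was of a later with an earlier time of the same stimulus and held no unstimulated cells. The other 6 libraries, 3 at 0 min and 3 at 60 min, entered neither fit on which the results rest. They are used for single values that place other times, and in 1 alternative fit over all 12 libraries. The series calls the 3 samples of a time biological replicates without saying how they were separated, and the p-values measure the spread between these samples only. The files give neither how the line was immortalized nor whether it was 1 clone.

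MiRNAs are short RNAs that load into Argonaute proteins and pair, mainly through bases 2 to 8 (the seed), with messenger RNAs, which are then translated less or degraded. In macrophages LPS activates NF-kappaB within minutes, and a few miRNA genes, miR-146a and miR-155 among them, are known NF-kappaB targets whose products damp or tune TLR signalling. Mature miRNAs are generally long-lived, so that a level shortly after a stimulus holds mostly molecules made before it.

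The sequences below are those of the miRNAs on which the comparison turned, together with family members that share a seed. They were taken from RefSeq (GRCm38.p6), run 5′ to 3′, and have the seed in capitals. Of 170 names covering the tested miRNAs, 36 matched a RefSeq mature miRNA by exact name, and 17 names without an arm were set to the arm that the older name denoted, an assignment made here and not read from the files. The other 117 are named only, among them miR-466h, miR-2146, miR-2183, miR-1937a, miR-2135, miR-669e, miR-2140 and miR-720. The first set was higher at 120 min on at least 1 of the scales described further on.
miR-376a-3p: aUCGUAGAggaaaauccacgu
miR-1970: uGUGUCACuggggauaggcuuug
miR-760-3p: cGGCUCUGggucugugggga
miR-691: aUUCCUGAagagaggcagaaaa
miR-3099-3p: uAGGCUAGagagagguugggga
miR-208b-3p: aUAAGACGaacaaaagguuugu
miR-701-5p: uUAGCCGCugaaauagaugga
miR-1902: aGAGGUGCaguaggcaugacuu
miR-146a-5p: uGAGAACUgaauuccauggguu
miR-22-3p: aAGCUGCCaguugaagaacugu
The second set pairs changed miRNAs with relatives of the same seed. MiR-221 and miR-222 share GCUACAU, miR-92a and miR-25 share AUUGCAC, and miR-130b and miR-301a share AGUGCAA.
miR-221-3p: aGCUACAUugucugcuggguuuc
miR-222-3p: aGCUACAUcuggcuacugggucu
miR-92a-3p: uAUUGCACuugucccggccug
miR-25-3p: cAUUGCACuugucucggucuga
miR-130b-3p: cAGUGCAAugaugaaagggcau
miR-301a-3p: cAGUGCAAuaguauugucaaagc
The third set was lower at 120 min after scaling, or, for the miR-125a precursor, differed between its arms.
miR-1224-5p: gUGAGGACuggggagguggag
miR-340-5p: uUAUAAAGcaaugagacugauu
miR-26b-5p: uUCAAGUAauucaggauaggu
miR-770-3p: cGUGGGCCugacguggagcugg
miR-125a-5p: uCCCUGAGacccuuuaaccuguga
miR-125a-3p: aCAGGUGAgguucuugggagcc

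The libraries differed in depth and in overall level, and 1 stood apart. Mouse miRNA counts, read from the deposited signal, ran from 165897 to 187657 at 30 min and from 250977 to 313170 at 120 min, without overlap (exact permutation test, two-sided, p = 0.1, the smallest that 3 against 3 can give, adjusted p = 0.367 over 11 tests). Summed miRNA signal was 229822, 172395 and 218830 at 30 min in replicates 1, 2 and 3, and 349118, 208818 and 195147 at 120 min. The 120 min replicate 1 library was far above the other 5, and the groups overlapped. The mean log2 summed signal at 120 min minus that at 30 min was 0.24 (exact p = 0.6, adjusted p = 0.733), and was -0.03 without that library. Values in the deposited table stop at a floor of 20, and 279 of the 566 miRNAs (49.3%) lay at it in all 6 libraries, so that no difference between times could be detected for them at this depth. Of the 4 housekeeping mRNAs, Actb was higher in every 120 min library (23632, 22932 and 22830) than in any 30 min library (19800, 20009 and 16958), with a difference of 0.29 in mean log2 signal (exact p = 0.1, adjusted p = 0.367), and B2m, Gapdh and Rpl19 overlapped. Ligation controls, RNAs added to follow the tagging step, gave 410 to 508 counts per 1000 positive control counts at 30 min and 498 to 529 at 120 min. In the 3 libraries at 0 min they gave 142 to 293. In RNA from a whole dish, fewer cells holding a miRNA and less of it per cell cannot be told apart.

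The label of the cells was set against miRNA markers. All 12 probes of the myeloid list passed the filter on low signal. They include miR-223, a granulocyte and monocyte miRNA, and miR-142-3p, a miRNA of blood cells in general. The list also holds miR-15a, miR-15b, miR-16, miR-106a/17, miR-23a, miR-24 and miR-27a, which are not markers of the myeloid lineage alone. It leaves out miR-155, which had also been named as a myeloid marker and did not pass the filter. The count of 12 of 12 therefore depends on the choice of list. MiR-142-3p had a signal of 6800, 6714 and 12176 at 30 min and 17664, 10149 and 4291 at 120 min, and the groups overlapped. MiR-223 ran from 758 to 1071 at 30 min and from 915 to 1770 at 120 min. Probes for miRNAs of pluripotent (9), erythroid (2) and liver or pancreatic cells (2) were at the floor in all 6 libraries, and none of 7 epithelial or 4 muscle markers passed the filter. Of the remaining markers, 2 of 6 mesenchymal probes, both arms of miR-199a, 1 of 2 endothelial, 1 of 5 neural and 1 of 3 lymphoid probes passed the filter. The summed mesenchymal signal ran from 676 to 797 at 30 min and from 644 to 1087 at 120 min, and its part in any result was not tested.

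Because the overall level differed between libraries, each miRNA was tested on 2 scales. The deposited scale used the values as given. The top-100 scale divided each library by the geometric mean of its 100 most abundant mouse miRNAs, which held 94.8% of the miRNA signal, and then raised low values to a common floor of 27.6. The divisors were 0.986, 0.726 and 0.949 at 30 min and 1.53, 0.934 and 0.878 at 120 min. Changes are differences of log2(signal + 1), 120 min minus 30 min, and understate the change of miRNAs near the floor. The 163 miRNAs whose mean signal exceeded 31.1, a level set from the negative controls, were tested with limma and p-values were adjusted over all 163 by the Benjamini-Hochberg method, with a threshold of 0.05.

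On the deposited scale 15 of the 163 miRNAs (9.2%) were higher at 120 min and 0 (0%) were lower, where 31 and 2 had an unadjusted p under 0.05. The median change was 0.25, and 78.5% of the changes were positive. On the top-100 scale, where the median was -0.04, 16 (9.82%) were higher and 12 (7.36%) lower, with 31 and 28 at an unadjusted p under 0.05. Quantile normalization of the deposited values gave 14 higher and 14 lower. Without 120 min replicate 1 the deposited scale gave 21 higher and 8 lower with a median of -0.01, so that the split between directions on that scale turned on this library. By order alone, 46 (28.2%) had all 3 deposited 120 min values above all 3 at 30 min, and 2 (1.23%) all below. The same counts on the top-100 scale were 34 (20.9%) above and 33 (20.2%) below. Most of the profile moved little, with 128 miRNAs (78.5%) within 0.5 log2 units of 0 on the top-100 scale.

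**Figure D1:**
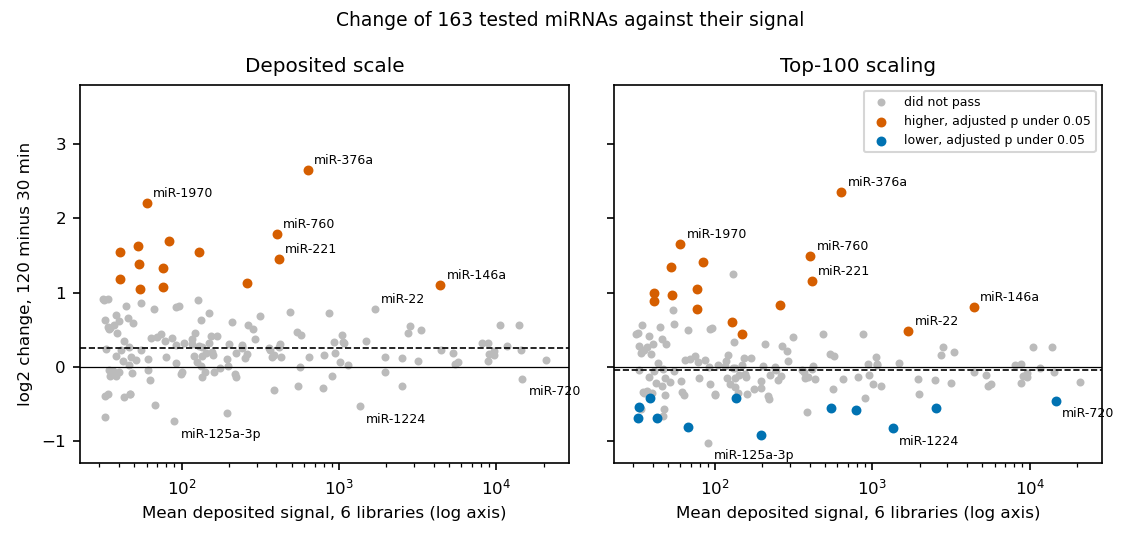
Log2 change from 30 to 120 min (y axis) against mean deposited signal over the 6 libraries (x axis, log scale) for the 163 tested miRNAs, on the deposited scale (left) and the top-100 scale (right). Orange points were higher and blue points lower at an adjusted p under 0.05, grey points did not pass, and the dashed line is the median of 0.25 (left) and -0.04 (right), from which miR-376a stands farthest.

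As higher on both scales 13 miRNAs passed, and adding those called on 1 scale gives 18. Their summed share of the mouse miRNA signal was 2.54% at 30 min and 4.97% at 120 min. Their mean signal over the 6 libraries had a median of 105, against 148 for all tested, and 9 of the 18 lay under 100, as did 64 of the 163 tested (39.3%). The 60 min mean lay between those at 30 and 120 min for 16 of the 18 on the deposited scale and for 17 on the top-100 scale, against 105 and 92 of the 163 tested. These orders share the 30 and 120 min libraries with the calls and are descriptions. The filter used the mean of all 6 libraries, and 15 tested miRNAs had a 30 min mean under 31.1, so that they entered through their 120 min values. Of the 18, 5 did so (miR-1970, miR-208b, miR-466h, miR-701 and miR-92a), and of the 12 lower on the top-100 scale miR-770-3p and miR-2140 entered through their 30 min values alone. For these 7 the values are described below and no support is drawn from their tests. Under quantile normalization 7 of the 15 deposited calls were lost, those of miR-760, miR-691, miR-3099, miR-701, miR-2146, miR-764-3p and miR-2183. All of the 15 and 16 were lost without a filter, in fits that took in the 279 miRNAs at the floor in all 6 libraries.

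MiR-146a, which represses the TLR adaptors TRAF6 and IRAK1 and is the best-known NF-kappaB-induced miRNA, was the most abundant of those that rose. Its signal was 3263, 2128 and 2920 at 30 min and 8437, 4535 and 5163 at 120 min. Every 120 min library was above every 30 min library, with 120 min replicate 1 the highest. It rose 2.14-fold on the deposited scale (log2 change 1.09 ± 0.33 SE, adjusted p = 0.013) and 1.74-fold on the top-100 scale (0.80 ± 0.12, adjusted p = 0.00596). After top-100 scaling its groups were narrow, 3106 ± 190 (SD, n = 3) against 5420 ± 519, and the call held without any 1 library, whereas the deposited call was lost without 30 min replicate 2 or 3 (adjusted p up to 0.207). The 60 min libraries had 3824, 3904 and 2376, so that the step from 60 to 120 min (0.66 on the top-100 scale) was larger than that from 30 to 60 min (0.14), a difference that was not tested.

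The other members of the list of miRNAs known to be induced by LPS gave little beside it. Of 9 probes, 3 were tested and 5 lay at the floor in all 6 libraries. 1 of the 3 rose on each scale, and the list's median change was 0.44 deposited and 0.15 top-100, beside 0.25 and -0.04 for all tested. MiR-21, which represses the tumour suppressor Pdcd4, had 390, 284 and 420 at 30 min and 689, 451 and 284 at 120 min, and the groups overlapped. Its change was 0.31 deposited (adjusted p = 0.698) and 0.01 ± 0.17 top-100 (adjusted p = 0.955). MiR-132, a CREB-dependent miRNA that represses acetylcholinesterase, had 74.8, 49.7 and 58.2 at 30 min and 135, 70.2 and 57.6 at 120 min, again overlapping, with a top-100 change of 0.15 ± 0.14 (adjusted p = 0.486). MiR-155 did not pass the filter on low signal.

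MiR-221 and miR-222 are neighbours on the X chromosome (GRCm38.p6, minus strand, chrX:19146307-19146329 and chrX:19146901-19146923) with the same seed, and are known for repressing the cell-cycle inhibitor p27. MiR-221 had a signal of 255, 163 and 242 at 30 min, 375, 337 and 164 at 60 min and 808, 498 and 516 at 120 min. All 120 min libraries were above all others, and miR-221 rose 2.73-fold on the deposited scale (1.45 ± 0.33, adjusted p = 0.000297). On the top-100 scale the 3 libraries of each time lay close together, 259, 225 and 255 against 529, 534 and 587, a change of 1.16 ± 0.11 (adjusted p = 0.000852). Both calls held without any 1 library. MiR-222 gave a signal near background, 35.6, 22.9 and 28.5 at 30 min and 53.7, 44.7 and 42.7 at 120 min. Its deposited groups did not overlap, but its change passed on neither scale (0.69, adjusted p = 0.202, and 0.41 ± 0.15, adjusted p = 0.104). The log2 ratio of miR-221 to miR-222 within a library, which does not depend on scaling, was 2.92 ± 0.14 (SD, n = 3) at 30 min and 3.66 ± 0.22 at 120 min, without overlap. This ratio and the other within-library ratios below were chosen after the values were seen and carry no test. MiR-222 had a mean of 29.0 at 30 min, under the level set for the filter, and entered the test through its 120 min values. The 30 min ratio of miR-221 to miR-222 therefore depends in part on the background, and its SD is not a measured spread. No support is drawn from its lack of overlap.

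MiR-376a had the largest change on both scales. It comes from the imprinted Dlk1-Dio3 locus on chromosome 12 (GRCm38.p6, plus strand, chr12:109723824-109723844), a large maternally expressed miRNA cluster best known from placenta, brain and embryonic tissue, and its seed is a known site of RNA editing. Its signal was 153, 115 and 274 at 30 min, 429, 797 and 324 at 60 min and 779, 1269 and 1220 at 120 min. No 30 min library reached any 60 or 120 min library. It rose 6.26-fold on the deposited scale (2.65 ± 0.33, adjusted p = 1.17e-12) and 5.11-fold on the top-100 scale (2.35 ± 0.42, adjusted p = 0.0147). The very small deposited p is that of a fit that gave every miRNA the same variance, and overstates what 3 against 3 libraries can show. The top-100 call was lost without 30 min replicate 1 or 2 or 120 min replicate 2 or 3 (adjusted p up to 0.0739), while the change stayed between 2.11 and 2.83.

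No other tested miRNA of the Dlk1-Dio3 cluster passed as higher on either scale. Of its 54 probes, 34 lay at the floor in all 6 libraries and 4 were tested. On the deposited scale 1 of the 4 was higher and 0 lower, with a median of 0.40, and on the top-100 scale 1 was higher and 1, miR-770-3p, lower, with a median of 0.08. MiR-136 had 254, 144 and 271 at 30 min and 276, 281 and 223 at 120 min, with overlap (top-100 change -0.03 ± 0.22, adjusted p = 0.939). The log2 ratio of miR-376a to miR-136 went from -0.34 ± 0.38 at 30 min to 2.04 ± 0.49 at 120 min, and that to miR-539 from 2.63 ± 0.45 to 4.73 ± 0.49, both without overlap. MiR-539 had a mean of 27.6 at 30 min, under the level set for the filter, and entered the test through its 120 min values. The 30 min ratio to miR-539 therefore depends in part on the background, and its SD is not a measured spread. No support is drawn from the lack of overlap of that ratio. MiR-770-3p, from the Meg3 end of the same locus (plus strand, chr12:109563744-109563765), went the other way from miR-376a. Its signal was 40.3, 40.8 and 38.0 at 30 min and 36.2, 20 and 20 at 120 min, where 2 of the 3 libraries were at the floor. After top-100 scaling all 3 values at 120 min were at the common floor, so that the change has no measured size.

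**Figure D2:**
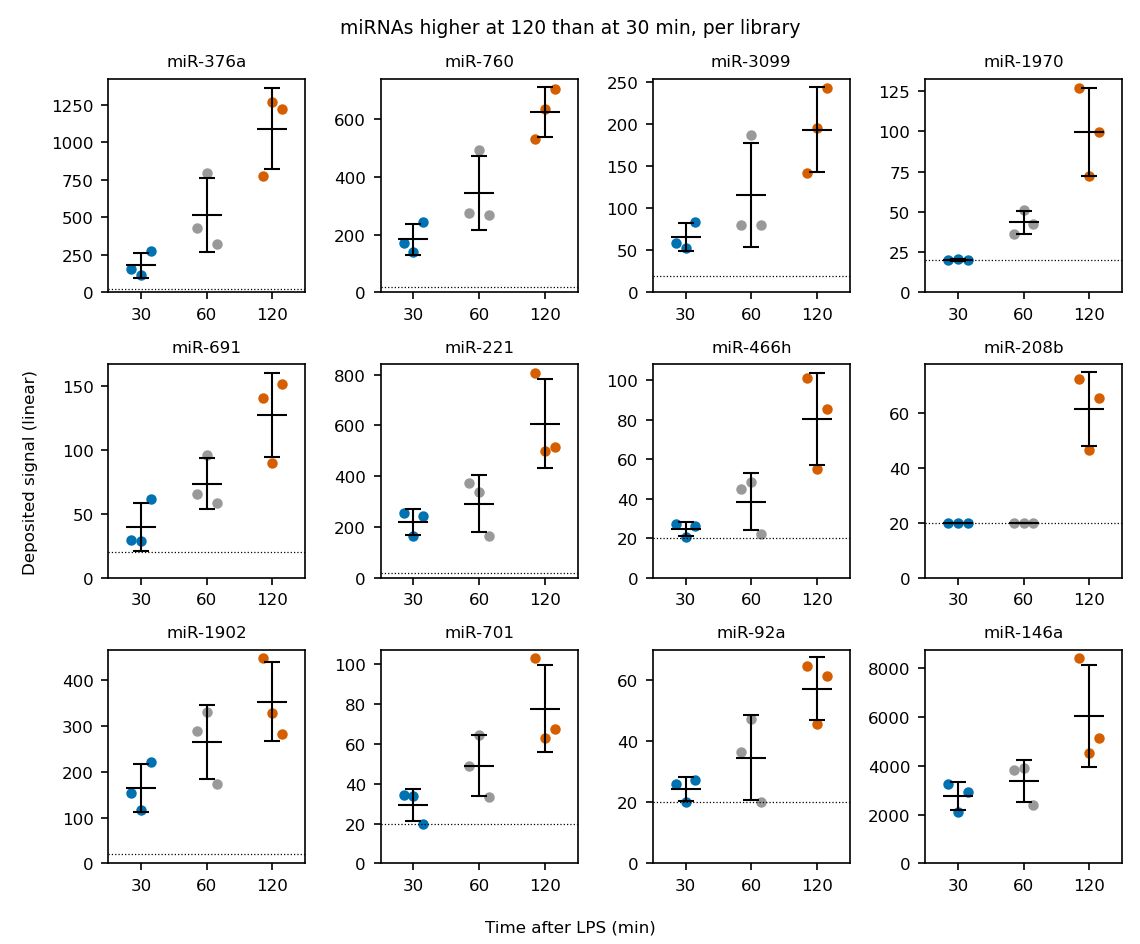
Deposited signal (y axis, linear, from 0) of 12 miRNAs that passed as higher at 120 min, in each library at 30, 60 and 120 min after LPS (x axis). Points are libraries, bars are the mean ± SD of 3, and the dotted line is the floor of 20. In each panel the 3 libraries at 120 min lie above the 3 at 30 min, and miR-208b is at the floor at 30 and 60 min.

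Several miRNAs with few described roles also rose. MiR-760 had 171, 138 and 243 at 30 min, 275, 492 and 267 at 60 min and 531, 635 and 703 at 120 min. Its groups at 30 and 120 min did not overlap, and it rose by 1.78 ± 0.33 (adjusted p = 6e-06) on the deposited and 1.49 ± 0.31 (adjusted p = 0.019) on the top-100 scale. Quantile normalization gave 1.45 (adjusted p = 0.0655), and the top-100 call was lost with trend and robust variance (adjusted p = 0.0564). MiR-1902 had 154, 117 and 221 at 30 min and 449.2, 328 and 282 at 120 min, rising by 1.12 (adjusted p = 0.0105) and 0.83 ± 0.17 (adjusted p = 0.019). MiR-3099 had 59.3, 52.7 and 84.3 at 30 min and 142, 195 and 243 at 120 min. It rose by 1.55 on the deposited scale (adjusted p = 9.56e-05; 0.0947 under quantile normalization), but its top-100 change of 1.26 ± 0.38 did not pass (adjusted p = 0.0596). The top-100 calls of miR-760 and miR-1902 were each lost in 4 of the 6 fits with 1 library left out, those without 30 min replicate 1 or 2 or 120 min replicate 2 or 3, and the deposited call of miR-1902 without 30 min replicate 1 or 2.

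A further group was at or near the floor at 30 min and above it at 120 min. MiR-1970 (minus strand, chrX:135786174-135786196) had 20, 20.9 and 20 at 30 min, with 2 libraries at the floor, 36.6, 51.3 and 42.4 at 60 min and 127, 72.6 and 99.5 at 120 min. It was also at the floor in all 3 libraries at 0 min, where a floored entry can hide up to 45.3 in replicate 1. All 3 libraries at 120 min were above all 3 at 60 min, which in turn were above all 3 at 30 min. MiR-208b, made from an intron of the slow myosin gene Myh7 and known from heart and slow muscle, was at the floor in all libraries at 30 and 60 min and had 72.3, 46.2 and 65.1 at 120 min. It was at least 2.68-fold higher at 120 min, taking each floored entry at the most it can hide. None of the 4 muscle markers passed the filter, and their summed signal was 80 to 89.7 at 30 min and 80 to 90.4 at 120 min, where 80 is the floor of 4 probes.

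MiR-691 had 29.7, 28.8 and 61.8 at 30 min and 140, 90.1 and 151 at 120 min, and rose by 1.70 deposited (adjusted p = 1.71e-05) and 1.41 ± 0.33 top-100 (adjusted p = 0.0283). Quantile normalization gave 1.33 (adjusted p = 0.0655). MiR-466h had 27.3, 20.9 and 26.1 at 30 min and 101, 55.01 and 85.3 at 120 min. MiR-701 had 34.4, 33.8 and 20 at 30 min and 103, 63.0 and 67.4 at 120 min. None of these groups overlapped. MiR-691 lost its top-100 call without 30 min replicate 1 or 2 or 120 min replicate 2 or 3. Below the filter, 8 of the 403 untested miRNAs (1.99%) were at the floor in all 3 libraries at 30 min and above it in all 3 at 120 min, led by miR-546 with 48.2, 31.1 and 42.7, and 0 went the opposite way. Only 4 of the 8, miR-546, miR-292-5p, miR-3472 and miR-1962, had all 120 min values above the 23.8 that a floored entry can hide.

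MiR-92a is the last member of the growth-promoting miR-17~92 cluster (plus strand, chr14:115044476-115044496, with a second copy elsewhere in the genome) and shares its seed with miR-25. It had 26.1, 20 and 27.3 at 30 min and 64.7, 45.4 and 61.4 at 120 min, a low signal in groups that did not overlap. It entered the test through its 120 min values. The other 5 tested probes of the family gave a higher signal and did not pass, and 2 more lay at the floor in all 6 libraries. The miR-20a/20b probe, the most abundant on the panel, had 22646, 17665 and 18690 at 30 min and 32893, 17881 and 15299 at 120 min (top-100 change -0.21 ± 0.13, adjusted p = 0.304). Of 6 tested probes of the family 1, miR-92a, was higher and 0 lower on each scale, with a median of 0.14 deposited and -0.15 top-100. MiR-25, of the same seed, had a top-100 change of -0.11 ± 0.10 (adjusted p = 0.461). The log2 ratio of miR-92a to miR-25 was -7.65 ± 0.10 at 30 min and -6.61 ± 0.39 at 120 min, without overlap. All miR-92a values at 30 min lay under the level set for the filter, and 1 was at the floor. The 30 min ratio therefore depends on the floor and background, and its SD is not a measured spread. No support is drawn from the lack of overlap.

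Another 3 miRNAs passed as higher on the top-100 scale alone. MiR-22, a miRNA abundant in many tissues, had 1432, 950 and 1300 at 30 min and 3037, 1772 and 1661 at 120 min. Its groups did not overlap, and it rose by 0.48 ± 0.10 on the top-100 scale (adjusted p = 0.019) with a deposited change of 0.78 (adjusted p = 0.126). MiR-490, from an intron of the muscarinic receptor gene Chrm2, rose by 0.61 ± 0.14 (adjusted p = 0.0246), and the probe shared by miR-467h, miR-669d and miR-669l by 0.44 ± 0.12 (adjusted p = 0.0421). MiR-22 lost this call without 30 min replicate 1 or 2 or 120 min replicate 2, miR-490 without any 1 of the 30 min libraries or 120 min replicate 2, and the shared probe in every such fit except that without 120 min replicate 1. The remaining miRNAs called higher on both scales were miR-764-3p (1.07 deposited, 0.78 ± 0.15 top-100) and miR-2146 (1.33 and 1.05 ± 0.25), and miR-2183 passed on the deposited scale alone (1.04, adjusted p = 0.0189). The standing of miR-2146 and miR-2183 as miRNAs is doubtful. On the deposited scale miR-764-3p lost its call without 30 min replicate 1 or 2 and miR-2183 without 30 min replicate 2 or 120 min replicate 2. On the top-100 scale miR-764-3p lost it without 30 min replicate 1 or 2 or 120 min replicate 2 or 3, and miR-2146 without any 1 of the 30 min libraries.

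The 12 miRNAs called lower were so on the top-100 scale, and none of them passed on the deposited scale, where their changes ran from -0.68 to -0.13. On the top-100 scale the 60 min mean lay between those at 30 and 120 min for all 12, against 92 of the 163 tested. The same held on the deposited scale for 10 of the 12, against 105 of the 163. These orders too share the 30 and 120 min libraries with the calls and are descriptions. The entry shared by miR-1937a and miR-1937b, sequences now read as fragments of a transfer RNA, had top-100 values of 268, 260 and 269 at 30 min and 120, 152 and 153 at 120 min. The groups were far apart, and the entry fell by 0.91 (SE 0.12, adjusted p = 0.00548), a call that held without any 1 library. MiR-1224, an abundant intronic miRNA that is spliced rather than cut by Drosha, had top-100 values of 1771, 1849 and 1656 at 30 min and 1168, 1067 and 786 at 120 min. It fell by 0.82 (SE 0.16, adjusted p = 0.0188), and lost the call without 30 min replicate 1 or 2 or 120 min replicate 2. Its deposited values overlapped, since 120 min replicate 1 held 1785 against 1342 to 1747 at 30 min.

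Among better-known miRNAs, miR-340-5p had top-100 values of 992, 1023 and 857 at 30 min and 698, 701 and 526 at 120 min, and fell by 0.58 (SE 0.15, adjusted p = 0.0329). MiR-130b had 744, 662 and 588 at 30 min and 455, 412 and 484 at 120 min, and fell by 0.56 (SE 0.13, adjusted p = 0.0259). MiR-301a, of the same seed, had a change of -0.04 ± 0.10 (adjusted p = 0.823). MiR-26b, from an intron of the phosphatase gene Ctdsp1, had 152, 155 and 161 at 30 min and 130, 112 and 107.4 at 120 min, and fell by 0.42 (SE 0.11, adjusted p = 0.0386). These 3 miRNAs had no overlap between 30 and 120 min after scaling, and overlapped on the deposited scale. Each lost its call in 3 to 5 of the 6 fits with 1 library left out, always including those without 30 min replicate 1, 30 min replicate 2 and 120 min replicate 2. MiR-340-5p and miR-26b also lost it without 120 min replicate 3, and miR-26b without 30 min replicate 3. The probe for miR-466a-3p and miR-466b-3-3p had 2927, 3225 and 2948 against 2448, 1906 and 1901 and fell by 0.55 (SE 0.13, adjusted p = 0.029), a call kept only without 120 min replicate 1. Of the rest, miR-2135 fell by 0.81, miR-669e by 0.69, miR-720 by 0.45 and miR-338-3p by 0.42. The call of miR-2135, an entry doubtful as a miRNA, held in all 6 of these fits. MiR-669e and miR-720 lost theirs in all but the fit without 120 min replicate 3, and miR-338-3p in all 6. MiR-2140 had top-100 values of 34.9, 42.5 and 47.6 at 30 min and 27.6, 27.6 and 29.0 at 120 min, with 2 of the 3 later values at the common floor. In the fit over all 12 libraries miR-2135 and miR-338-3p did not pass, nor did miR-26b and miR-338-3p with median scaling.

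**Figure D3:**
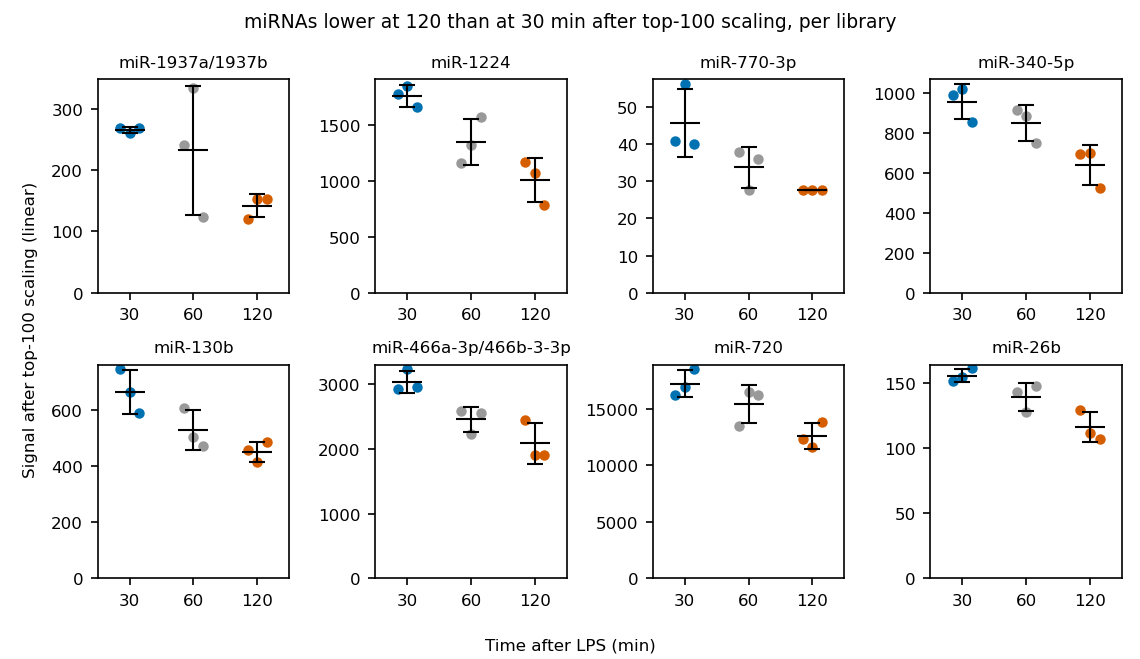
Signal after top-100 scaling (y axis, linear, from 0) of 8 miRNAs that passed as lower at 120 min, in each library at 30, 60 and 120 min after LPS (x axis). Points are libraries and bars are the mean ± SD of 3. In each panel the 3 libraries at 120 min lie below the 3 at 30 min, and the 120 min values of miR-770-3p are all at the common floor of 27.6.

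The arms of the miR-125a precursor had changes of opposite sign, neither of which passed. MiR-125a-5p, the main arm, which is known in macrophages for tempering inflammatory cytokine production, had 1478, 1041 and 1340 at 30 min and 2409, 1371 and 1281 at 120 min, with a top-100 change of 0.05 ± 0.10 (adjusted p = 0.733). MiR-125a-3p, the lesser arm, had 87.8, 74.6 and 181 at 30 min, 186, 235 and 79.6 at 60 min and 75.6, 72.6 and 46.4 at 120 min. On the top-100 scale its step from 30 to 60 min was 0.39 and that from 60 to 120 min -1.41, which was not tested. Its top-100 change of -1.02 ± 0.30 was the lowest of all 163 and did not pass (adjusted p = 0.0572), with all 3 scaled libraries at 120 min below all 3 at 30 min. The log2 ratio of the 3p to the 5p arm was -3.59 ± 0.62 at 30 min and -4.67 ± 0.39 at 120 min, without overlap. The same ratio between arms overlapped between the times for miR-142, miR-340, miR-362, miR-423 and miR-199a.

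In the families that hold most of the miRNA signal few members passed. Of the 9 let-7 members, which promote differentiation and restrain growth, 0 passed on either scale, with a median of 0.34 deposited and 0.04 top-100. Let-7a had 12709, 9338 and 11609 at 30 min and 21220, 14569 and 14298 at 120 min. Its libraries did not overlap on either scale, but its top-100 change of 0.27 ± 0.11 did not pass (adjusted p = 0.118). Let-7g had a top-100 change of -0.07 ± 0.10 (adjusted p = 0.61). MiR-16, a cell-cycle-restraining miRNA of the miR-15/16 family, had the same pattern as let-7a (0.27 ± 0.11, adjusted p = 0.136), and 0 of the 4 tested members of that family passed, with a top-100 median of -0.11. In the myeloid list 1 of 12, miR-146a, was higher on each scale and 0 lower, with medians of 0.25 and -0.04, to 2 decimals those of all tested.

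In the families of miR-23, miR-24 and miR-27 (5 tested), miR-29 (3), miR-30 (5), the miR-106b~25 cluster (3), miR-101 (2), miR-103 with miR-107 (2), miR-191 with miR-425 (2) and miR-181 (1), 0 members passed on either scale. Their top-100 medians ran from -0.16 for miR-29 and miR-181 to 0.34 for miR-191 with miR-425, and miR-30e (-0.34 ± 0.10, adjusted p = 0.0518) and miR-425 (0.39 ± 0.12, adjusted p = 0.063) came nearest to the threshold on that scale. On the deposited scale all of these medians were positive, as was that of all tested. Of the 6 tested probes for miR-99, miR-100 and miR-125, 0 passed on either scale (median 0.39 deposited and 0.09 top-100), miR-26b was the 1 tested of 2 miR-26 probes, and of 7 probes for the p53-linked miR-34 family 0 were tested. Another list holds miR-297, miR-466, miR-467 and miR-669 names, the families of a rodent-specific repeat-rich array in the Sfmbt2 intron that is expressed in placenta. It was matched by name, and miR-466k, miR-467h and miR-467f lie on chromosomes 3, 9 and 11, so that its counts are not those of 1 cluster. In this list 18 of 33 probes were tested. There 1 was higher and 0 lower on the deposited scale, with a median of 0.10, and 2, miR-466h among them, were higher and 2 lower on the top-100 scale, with a median of -0.19. Its probes share closely related sequences, and signal may be split between members. Of 9 tested entries whose standing as miRNAs is doubtful, mostly fragments of other RNAs, 2 were higher on the deposited scale (median -0.14) and 1 was higher and 4 lower on the top-100 scale (median -0.43). Of these 4, miR-2140 entered the test through its 30 min values alone. Over all tested, 9.2% were higher on the deposited scale (median 0.25), and 9.82% higher and 7.36% lower on the top-100 scale (median -0.04). MiR-720, a transfer RNA fragment and the second most abundant probe, had top-100 values of 16258, 16897 and 18556 at 30 min and 12345, 11620 and 13835 at 120 min.

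**Figure D4:**
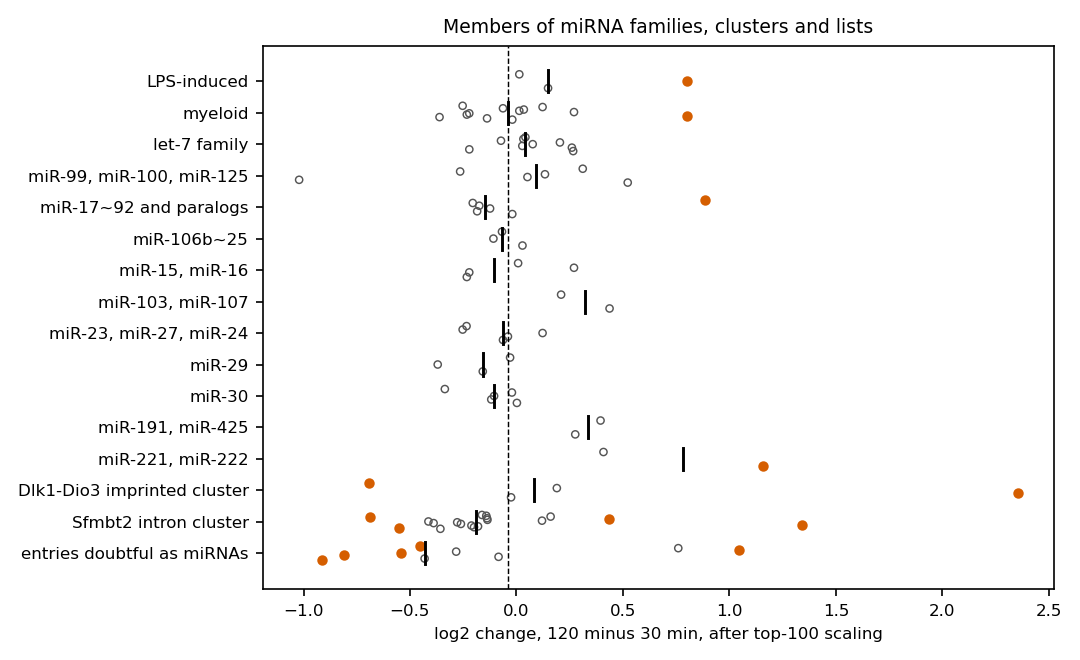
Log2 change from 30 to 120 min on the top-100 scale (x axis) of the tested members of 16 families, clusters and lists (rows). Filled orange points passed at an adjusted p under 0.05 in either direction, open points did not, black bars are list medians, and the dashed line is the median of all 163 tested miRNAs, -0.04. Most lists sit within 0.2 of that line, and the Dlk1-Dio3 row spans from -0.69 to 2.35. The row labelled Sfmbt2 intron cluster was matched by name and holds members from other chromosomes.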

How the data were processed

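RNA from the cells was measured on a NanoString nCounter mouse miRNA panel. The authors' normalization is not given in the sources consulted, and the deposited values are called signal. Between 20 and 2000, each library's deposited signal came in whole multiples (within 0.1) of 1 factor, 0.748 to 1.19 in the 6 libraries compared, and the 4 housekeeping mRNAs had the same geometric mean in all 12. Counts are deposited signal above the floor divided by that factor. An entry at the floor can hide up to 23.8 in the 6 libraries compared, and up to 45.3 in 0 min replicate 1. Signal differs between probes with their efficiency, so that a share of signal is not a share of molecules.

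Libraries were grouped by the time in their titles. The filter kept mouse miRNAs with a mean over the 6 libraries above 31.1, the mean over libraries of the negative controls' mean plus 2 SD, multiplied by the library's factor (163 tested, 403 not, 14 of the tested with a floored library). A model with 1 mean per time was fitted to log2(signal + 1) by lmFit and eBayes of limma 3.58.1 (R 4.3.3), with two-sided tests and 4 residual degrees of freedom. On the deposited scale limma estimated 1 variance for every miRNA, so that all SEs equal 0.33. The residuals share each library's overall level and are not independent. On the top-100 scale SEs ran from 0.09 to 0.42. Library totals were compared by exact permutation tests (SciPy 1.17.1, Python 3.11.15). The fitting script was tested on simulated data.

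For each scale the text names the passing miRNAs that rose most and those that fell most (at most 12 each), the tested members of the LPS-induced list, up to 4 of every other list, and the 5 most abundant. Others were named after their values were seen: miR-222 and miR-301a for a shared seed, miR-125a-3p for the lowest change, the within-library ratios, and miRNAs under the filter. The members, lists and tests were chosen with earlier results of these data known. Alternatives were all 12 libraries in 1 fit, a replicate block, a pseudocount of 10, no filter, a filter at 100, trend and robust variance, leaving out each library, a common floor or none, and scaling by ligation controls, quantiles, 50 miRNAs or medians. Scaling by housekeeping mRNAs without Actb and by positive controls was added after seeing the data.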

Additional observations from a re-analysis of the deposited data

Results flagged for a closer look

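The panel also carries 33 probes for miRNAs of mouse herpesviruses, which entered no comparison. Of these, 2 were at the floor of 20 in all libraries at 0 and 30 min and above it in all 3 at 120 min. A floored entry can hide up to 45.3 in 0 min replicate 1, which most of the 120 min values given next do not exceed. The probe mcmv-miR-m88-1, named for murine cytomegalovirus, had 48.2, 38.27 and 44.9 at 120 min, with 38.27 the lowest, and 30.3, 38.1 and 20 at 60 min. The probe mghv-miR-M1-7-5p, named for murine gammaherpesvirus, had 51.5, 30.3 and 44.9 at 120 min, with 30.3 the lowest, and was at the floor at 60 min. These levels lie near the background level of 31.1, and their source was not tested.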

How the results depend on the processing

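Counts of miRNAs past the threshold depended on scaling and filter more than single changes did. On the deposited scale, where 15 were higher, there were 6 with the filter at 100, 0 without a filter (39 at an unadjusted p under 0.05 in limma), 23 with housekeeping scaling without Actb, 51 with ligation control scaling and 115 with positive control scaling, which moved the median change to 0.35, 0.31 and 0.63 for the last 3. The deposited count of lower miRNAs, 0 at first, became 3 with ligation control scaling and 14 with quantile normalization. On the top-100 scale 0 passed in either direction without a filter (58 at an unadjusted p under 0.05 in limma). The fits without a filter took in the 279 miRNAs that did not vary from the floor. In them the SD that limma estimated over all miRNAs was 0.000458 deposited and 4.4e-16 top-100, against 0.407 and 0.166 in the main fits. Leaving out 1 library gave 10 to 21 higher and 0 to 8 lower on the deposited scale, and 4 to 24 higher and 2 to 11 lower on the top-100 scale. In all 6 such fits 9 of the 15 deposited calls held. On the top-100 scale 4 of the 16 higher and 2 of the 12 lower calls did. Those that held include miR-1970 and miR-466h on both scales and miR-208b on the deposited scale. They entered the test through their values at the later time alone, and no support is drawn from their calls having held. The difference in mean log2 summed signal ran from -0.03 to 0.39 over these 6 fits. The change of miR-23a, 0.23 deposited, turned to -0.29 with quantile normalization, and the cause was not tested. Of the remaining values 2309 kept direction and side of the threshold, 89 crossed it upward and 134 downward. Across miRNAs, same-numbered libraries did not deviate together (correlations 0.05, -0.19 and -0.12 deposited, 0.03, -0.18 and -0.10 top-100), and the numbers were not taken as pairs. These correlations leave out each library's overall level, so that they cannot exclude pairing in that level. Summed signal was highest in replicate 1 at both times (229822 and 349118), and lowest in replicate 2 at 30 min (172395) and in replicate 3 at 120 min (195147). With a replicate block 23 were higher on the deposited scale, and 17 higher and 7 lower on the top-100 scale. Precision was limited by 3 libraries per time and by the floor, at which 279 of 566 miRNAs lay in all 6.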
